A study of Mus musculus with 12 samples.

Results

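Polyamine metabolism genes of mouse quadriceps were described here: 9 genes that make, break down or regulate the polyamines, picked by name as the pathway around Odc1. Of these, 7 genes had 11 probe sets whose annotation gave their symbol alone, among 22690 probe sets on the array, and all 11 were among the 13575 bright enough to be tested. Amd1 (S-adenosylmethionine decarboxylase) had no probe set under its symbol and was not analysed here. Sms (spermine synthase) lay only on probe sets shared with a pseudogene, which stay out of the counts below. The genes were chosen with earlier results of these arrays in view, without a record of which comparison was used. The differences of Odc1 therefore describe these arrays and are no independent support.

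Gene expression was measured in quadriceps of C57Bl/6J mice on 12 arrays, 3 per group. Combination mice were exercise trained and were given GW1516 (5 mg/kg/day), a synthetic activator of PPARδ, a nuclear receptor that drives genes of fatty acid use in muscle. GW mice were sedentary and received the same drug, exercise mice were trained and received vehicle, and vehicle mice were sedentary and received vehicle, in each case for 4 weeks. RNA of 3 mice was pooled for every array, and the p-values measure the spread between such pools. In whole muscle, fewer cells of a type and less RNA per cell cannot be told apart.

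Polyamines (putrescine, spermidine and spermine) are small cations that bind nucleic acids and that growing cells need. Ornithine decarboxylase, the product of Odc1, makes putrescine and is the first committed step. Aminopropyl groups from decarboxylated S-adenosylmethionine then give spermidine, through spermidine synthase (Srm), and spermine, through spermine synthase. Antizymes (Oaz1, Oaz2) bind ornithine decarboxylase and send it to the proteasome, and the antizyme inhibitor (Azin1), an inactive relative of the enzyme, draws antizyme away from it. Spermine oxidase (Smox) turns spermine back to spermidine, and the acetyltransferase Sat1 marks polyamines for oxidation and export. In mouse skeletal muscle, androgens are known to raise Odc1, and in many cell types Odc1 is a target of the transcription factor Myc.

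The stretches just upstream of Odc1 and Smox, the members with the largest log2 differences between combination and exercise, are printed here from RefSeq (GRCm38.p6), 5′ to 3′ on the plus strand, up to the base before the annotated gene. The first is chr12:17544623-17544807 and the second chr2:131491612-131491857, and capitals mark GC boxes (GGGCGG on either strand).
Odc1: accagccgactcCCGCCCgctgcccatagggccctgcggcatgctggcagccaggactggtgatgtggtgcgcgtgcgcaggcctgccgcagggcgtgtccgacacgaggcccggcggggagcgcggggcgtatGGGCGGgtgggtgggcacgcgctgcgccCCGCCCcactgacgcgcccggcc
Smox: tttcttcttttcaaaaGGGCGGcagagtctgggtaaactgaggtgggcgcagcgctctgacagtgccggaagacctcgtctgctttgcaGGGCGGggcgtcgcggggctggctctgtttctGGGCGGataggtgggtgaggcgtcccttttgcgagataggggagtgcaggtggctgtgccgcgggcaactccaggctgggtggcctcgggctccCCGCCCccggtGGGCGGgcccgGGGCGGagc
The Odc1 stretch of 185 bases held 3 GC boxes and the Smox stretch of 246 bases 6. Over their full windows of 250 bases from the table, the counts were 4 and 6. The motif was present in 32.7% of 32851 RefSeq windows of 250 bases upstream of a start site. Neither 250-base window held the E-box CACGTG bound by Myc and Max (6.02% of windows), the repeat bound by PPAR with RXR, AGGTCA and AGGTCA with 1 base between them (0.0335%), or the TATA box TATAAA (12.4%), on either strand. Sequence further upstream or further into the genes was not searched, so sites there would be missed. Of the 9 genes, 7 had a window in the table, and among the others the GC box occurred 3 times for Oaz2, 2 for Sat1, 1 for Amd1 and 0 for Oaz1. Sms had 2 windows, 1 with an E-box and no GC box and the other with 4 GC boxes and no E-box.

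Median signals per array lay between 48.4 and 57.2. All 10 muscle markers passed the filter on low signal, with sums of 144438 to 181208 per array. The mean correlation of an array with its own group lay between 0.95 and 0.968, and GW array 1 was lowest. The actin 3′/5′ signal ratio, a measure of RNA integrity, was 1.10 in vehicle array 1 and 0.763 to 0.918 in the others, and that array also had the lowest median signal (48.4). Its Gapdh 3′/5′ ratio was 0.890, within the range of 0.821 to 0.940 over all arrays. Of 8 fat cell markers, 6 had a probe set, 5 of them above the filter, and their summed signal was 1785, 4721 and 7189 in the combination arrays, 2111 to 2408 in GW, 2140 to 2577 in exercise and 1784 to 2510 in vehicle. The macrophage sum (7 of 7 markers) was 579 to 1114 in combination, 811 to 1115 in GW, 930 to 1487 in exercise and 684 to 1216 in vehicle. Endothelial markers (6 of 6) summed to 752 to 1036 over all arrays, fibroblast markers (5 of 6) to 5244 to 7930 and Schwann cell markers (3 of 5) to 316 to 430. Satellite cell and myoblast markers (4 of 4, of which 2 passed the filter) summed to 445 to 698. Myod1 and Myog passed, and Pax7 and Myf5 lay below the filter, so that sum says little about satellite cells.

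Odc1 (Entrez gene 18263) was measured by 3 probe sets, which ordered the group means alike: exercise highest, then vehicle, GW and combination. Probe set 1438761_a_at, the brightest, read 1767, 1702 and 1789 in combination, 2867, 1469 and 1719 in GW, 2550, 3155 and 3062 in exercise and 3289, 2339 and 2190 in vehicle. The combination arrays lay close together, below all exercise and all vehicle arrays. In GW, array 1 stood as high as the exercise arrays while arrays 2 and 3 lay below all exercise and vehicle arrays.

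Probe set 1437711_x_at of Odc1 read 338, 311 and 436 in combination, 563, 459 and 431 in GW, 702, 866 and 923 in exercise and 822, 558 and 514 in vehicle. Its combination arrays again lay below all exercise and vehicle arrays, and overlapped the GW arrays. Probe set 1427364_a_at of Odc1 read 380, 372 and 420 in combination, 616, 306 and 376 in GW, 561, 774 and 553 in exercise and 633, 511 and 437 in vehicle. Neighbours in the order of means (exercise and vehicle, vehicle and GW, GW and combination) overlapped in all 3 probe sets. Over the 12 arrays the probe sets of Odc1 correlated with each other at r = 0.819 to 0.956 on the log2 scale. Sequences matched by a probe set ending in _x_at may also be present in other transcripts, so the reading of 1437711_x_at is the less specific of the 3.

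**Figure D1:**
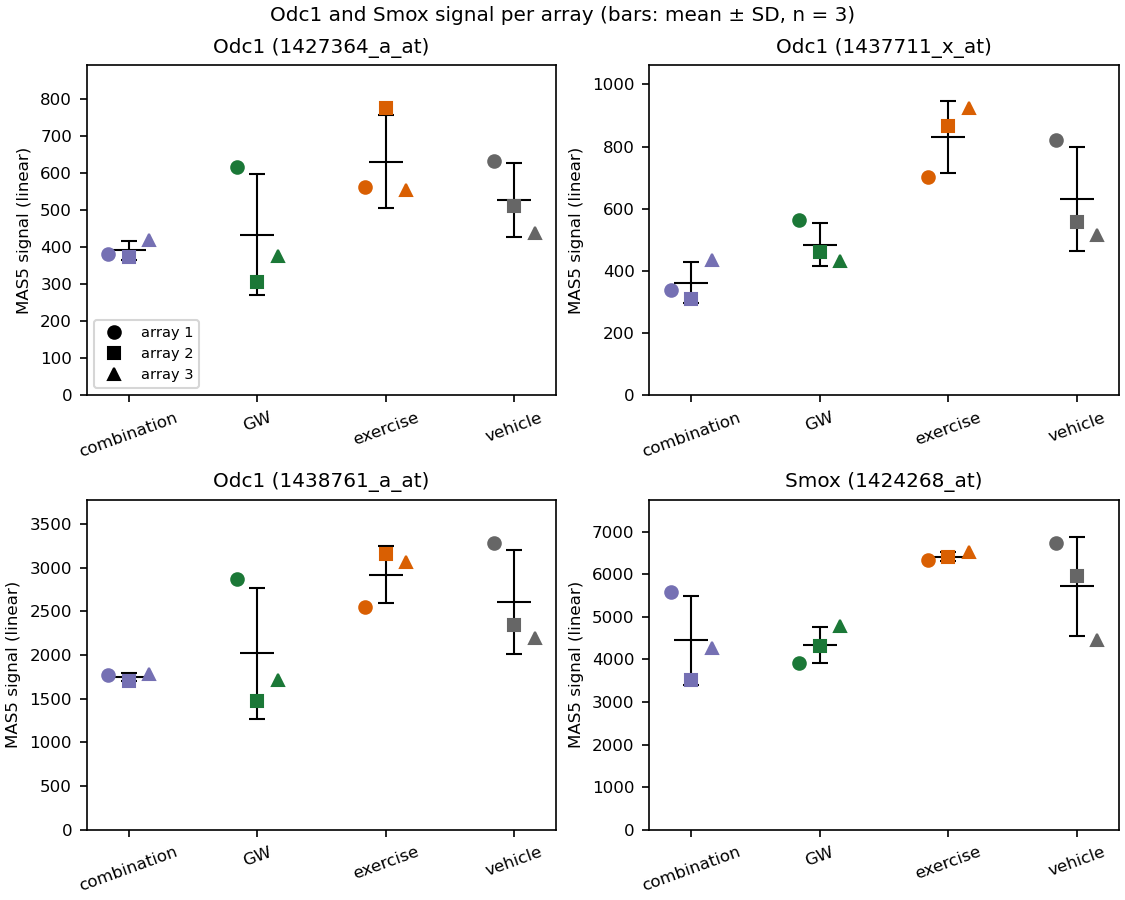
MAS5 signal (linear scale, from 0) of the 3 Odc1 probe sets and of Smox on each of the 12 arrays, by group. Symbols mark the array number, and black lines the mean ± SD of 3 arrays. Odc1 in the combination arrays sits below every exercise and vehicle array in all 3 panels, while GW array 1 stands apart from the other GW arrays in probe sets 1427364_a_at and 1438761_a_at.

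The comparison of combination with exercise asked what the drug did in trained muscle. Odc1 fell in probe set 1437711_x_at, to 362 ± 65.5 in combination, against 830 ± 115 in exercise (SD, n = 3 each), a log2 fold change of -1.20 ± 0.18 (SE; limma adjusted p = 0.00948). In 1438761_a_at of Odc1 the signals were 1753 ± 44.9 in combination and 2923 ± 326 in exercise (log2 -0.73 ± 0.20, limma adjusted p = 0.214), and in 1427364_a_at 391 ± 25.5 and 629 ± 125 (log2 -0.67 ± 0.22, limma adjusted p = 0.359), in the same order. Thus 1 of 11 member probe sets passed, where 0.162% of all probe sets tested did, and nothing is read from that count, since the choice of Odc1 may have rested on it. Of the 11, 6 had groups that did not overlap, all lower in combination, as 8.21% of all probe sets were: the 3 of Odc1, both of Azin1 and that of Smox. Those 6 also had an unadjusted p under 0.05, where 9.18% of all did. The median log2 fold change of the 11 was -0.42, against -0.01 over all probe sets tested. These counts and this median come from the same comparison, and several of the 6 are probe sets of 1 gene. Nothing is read from them about the pathway.

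The Odc1 call in 1437711_x_at ended without exercise array 2 (limma adjusted p = 0.0579), exercise array 3 (0.0837) or combination array 2 (0.0745), and without an intensity trend in the variances (0.132). Without GW array 1, which enters only through the shared spread, 1438761_a_at of Odc1 passed too (0.0333). Genes of the early response to stimuli were read on the same arrays. None of their 5 probe sets passed in limma here. All 5 were lower in combination with an unadjusted limma p under 0.05 (median log2 -2.67), where 9.18% of all probe sets had such a p. The 5 belong to 3 genes, which were named because they differ between arrays of a group. Nothing is therefore read from that count. Fos read 460, 92.5 and 39.2 in combination, against 900, 872 and 1127 in exercise. Egr1 read 414, 96.4 and 61.8 in combination, against 794, 869 and 937 in exercise. Hspa1b in 1427127_x_at read 1939, 208 and 50.7 in combination, against 1370, 1520 and 1595 in exercise. Among the combination arrays, array 1 was highest for all 3 early genes, and Odc1 read 338, 311 and 436 in 1437711_x_at and 1767, 1702 and 1789 in 1438761_a_at. The summed fat cell markers, and Adipoq among them (270, 1049 and 1471 in combination, against 283, 338 and 334 in exercise), were higher in combination arrays 2 and 3 than in any exercise array, but not in array 1. The part of the early genes and of the fat cell markers in the difference was not tested.

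Smox (Entrez gene 228608) read 5578, 3521 and 4258 in combination, 3917, 4326 and 4775 in GW, 6330, 6402 and 6523 in exercise and 6746, 5956 and 4462 in vehicle. The exercise arrays lay within a narrow band above all combination and GW arrays, and vehicle array 3 read like the GW arrays. Combination against exercise gave a log2 fold change of -0.55 ± 0.15 (limma adjusted p = 0.249), and the 95% interval ran from -0.88 to -0.23. Without combination array 1, the highest of its group, the value was -0.73 and passed (limma adjusted p = 0.0335).

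Azin1 had 2 probe sets (1422702_at and 1450714_at). The first read 217, 199 and 164 in combination, against 274, 231 and 266 in exercise (log2 -0.42 ± 0.19, limma adjusted p = 0.543). The second read 397, 269 and 362 in combination, against 529, 448 and 431 in exercise (log2 -0.47 ± 0.16, limma adjusted p = 0.383). All combination arrays of Azin1 lay below all exercise arrays in both probe sets, and neither passed. Over the 12 arrays the 2 probe sets of Azin1 correlated with each other at r = 0.327, so they did not follow each other closely.

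The other members did not pass in combination against exercise. Sat1 read 66.2, 107 and 71.1 in combination, against 100, 109 and 88.3 in exercise (log2 -0.31 ± 0.23). Srm read 140, 154 and 144 in combination, against 133, 162 and 162 in exercise (log2 -0.06 ± 0.16). Both genes had overlapping groups. Oaz1 in 1436292_a_at had a log2 fold change of 0.03 ± 0.11, and Oaz2 had -0.01 ± 0.11 in 1426763_at and 0.18 ± 0.20 in 1426764_at. The 95% intervals were -0.40 to 0.28 for Srm, -0.22 to 0.27 for Oaz1 and -0.24 to 0.22 for Oaz2 in 1426763_at.

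GW against vehicle, the drug in sedentary muscle, took its log2 fold changes from none of the arrays of combination against exercise. It may itself have led to the choice of Odc1, since no record says which comparison was used. Its SEs and p-values rest on a spread shared by all 12 arrays. None of the 11 member probe sets passed in limma, where 0.0958% of all probe sets did, and 1 had an unadjusted p under 0.05, as 6.42% of all did. Odc1 had log2 fold changes of -0.33 ± 0.22 (1427364_a_at), -0.36 ± 0.18 (1437711_x_at) and -0.41 ± 0.20 (1438761_a_at), with limma adjusted p = 0.833, 0.783 and 0.776. Smox had -0.38 ± 0.15 (limma adjusted p = 0.721), and its GW and vehicle arrays overlapped. The Odc1 values depended on the first array of either group. Without GW array 1 they were -0.62, -0.47 and -0.69 (limma adjusted p = 0.525, 0.815 and 0.17), and without vehicle array 1, the array with the highest actin 3′/5′ ratio, they were -0.19, -0.15 and -0.23 (0.978, 0.978 and 0.963). The part of RNA integrity in these values was not tested.

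In the remaining members GW against vehicle gave smaller values. Srm read 188, 138 and 177 in GW, against 150, 136 and 147 in vehicle (log2 0.20 ± 0.16), with GW array 1 highest. Oaz1 in 1436292_a_at read 3416, 4570 and 3928 in GW, against 4547, 4961 and 4129 in vehicle (log2 -0.20 ± 0.11). Azin1 had 0.00 ± 0.19 and -0.14 ± 0.16, Oaz2 -0.10 ± 0.11 and 0.05 ± 0.20, and Sat1 -0.05 ± 0.23.

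**Figure D2:**
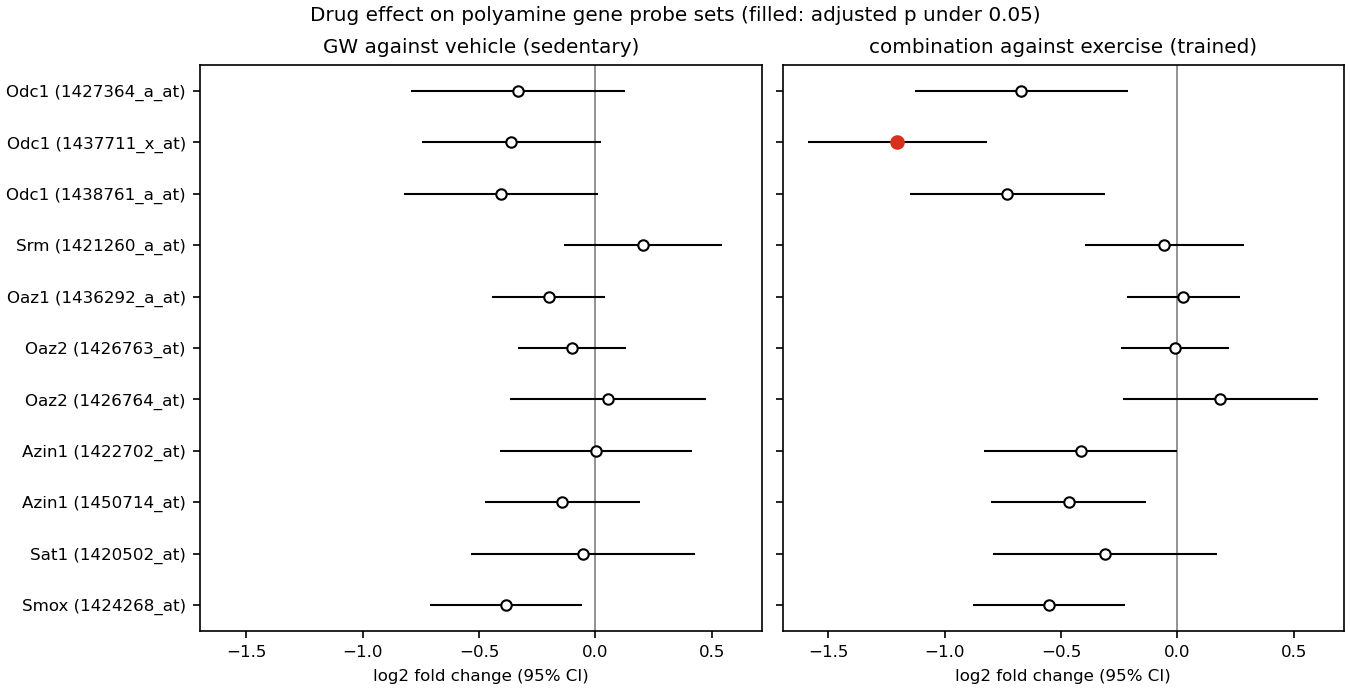
Log2 fold changes (points) with 95% confidence intervals (lines) of the 11 member probe sets for GW against vehicle in sedentary mice and combination against exercise in trained mice. The filled point, Odc1 in 1437711_x_at at -1.20, is the member that passed the threshold, and the Odc1 and Smox points lie left of 0 in both panels.

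Averaged over sedentary and trained mice, which includes comparisons that may have picked Odc1, the drug was set against no drug on 6 arrays each. Odc1 fell in 1437711_x_at (log2 -0.78 ± 0.13, limma adjusted p = 0.0127), the 1 member probe set called where 0.317% of all were, and 5 of 11 had an unadjusted p under 0.05, where 8.37% of all did. Nothing is read from these counts, since they include those comparisons. The other values were -0.57 ± 0.14 (0.146) and -0.50 ± 0.15 (0.325) for Odc1, -0.47 ± 0.11 (limma adjusted p = 0.127) for Smox and -0.31 ± 0.11 (0.462) for Azin1 in 1450714_at. The other members lay between -0.21 and 0.12. Without GW array 1 all 3 probe sets of Odc1 passed (limma adjusted p = 0.0281, 0.00956 and 0.0044, from 1427364_a_at to 1438761_a_at). Without vehicle array 1 the values were smaller in size, -0.43, -0.68 and -0.48 in the same order. Only 1437711_x_at passed then (limma adjusted p = 0.626, 0.0169 and 0.33). Smox passed without vehicle array 3 (0.026) or combination array 1 (0.0152). The Odc1 call ended without combination array 2 (0.0526) or GW array 3 (0.0554), and without an intensity trend (0.159).

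The interaction (combination against exercise, less GW against vehicle) was called for no member, as for 0% of all probe sets. By unadjusted p under 0.05 limma gave 1 of 11, where 6.79% of all passed: Odc1 in 1437711_x_at (log2 -0.84 ± 0.25, limma adjusted p = 0.659). The other Odc1 probe sets had -0.34 ± 0.30 and -0.33 ± 0.28, and leaving out 1 array gave -0.56 to -0.05 and -0.52 to -0.04, smallest in size without GW array 1 and largest without GW array 2. In 1437711_x_at the range was -1.05 to -0.71. A larger drug effect on Odc1 in trained than in sedentary mice was therefore not shown. Smox had -0.17 ± 0.22, with a 95% interval from -0.63 to 0.29.

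Combination against vehicle addressed drug and training jointly, and shares its arrays with the comparisons above. In limma 0 of 11 member probe sets passed, where 0.155% of all did, and 3 had an unadjusted p under 0.05, where 9.98% did. Odc1 had -0.79 ± 0.18 in 1437711_x_at (limma adjusted p = 0.132), -0.55 ± 0.20 in 1438761_a_at (0.376) and -0.42 ± 0.22 in 1427364_a_at (0.547). The combination arrays lay below all vehicle arrays in each of these and in Oaz1 (1436292_a_at), which read 4000, 3800 and 3850 in combination, against 4547, 4961 and 4129 in vehicle. These were 4 of 11, where 8.88% of all probe sets separated downward. Nothing is read from that count, as all but that of Oaz1 are probe sets of Odc1. Smox had -0.37 ± 0.15 (limma adjusted p = 0.469). Without vehicle array 1 the Odc1 values were smaller in size. They were -0.58 in 1437711_x_at, -0.37 in 1438761_a_at and -0.28 in 1427364_a_at (limma adjusted p = 0.381, 0.809 and 0.895).

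Training without the drug, exercise against vehicle, called 0 of 11 member probe sets in limma, where 0.0147% of all were called, and 2 had an unadjusted p under 0.05, where 10.4% of all did. Odc1 had log2 fold changes of 0.42 ± 0.18 (1437711_x_at, limma adjusted p = 0.442), 0.25 ± 0.22 (1427364_a_at) and 0.18 ± 0.20 (1438761_a_at). Leaving out 1 array gave 0.28 to 0.62, 0.10 to 0.39 and 0.07 to 0.36, highest without vehicle array 1 in each. Oaz1 had -0.25 ± 0.11 (limma adjusted p = 0.473), and read 3416, 3616 and 4496 in exercise, against 4547, 4961 and 4129 in vehicle. Smox had 0.19 ± 0.15 and Azin1 0.22 ± 0.19 and 0.19 ± 0.16. All of these groups overlapped. Of the 5 probe sets of the early genes, all had an unadjusted limma p under 0.05 here (median log2 3.83). Nothing is read from that count, since those genes were named from their values on these arrays. Egr1 rose, to 867 in exercise, against 74.0 in vehicle (means of 3 arrays, log2 3.57 ± 0.53, limma adjusted p = 0.0469). Fos read 967 ± 140 in exercise, against 50.6 ± 3.16 in vehicle (SD, n = 3 each, limma adjusted p = 0.053).

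Training under the drug, combination against GW, called 0 of 11, as 0% of all probe sets, and 1 had an unadjusted p under 0.05, where 5.75% of all did. That was Odc1 in 1437711_x_at (log2 -0.43 ± 0.18, limma adjusted p = 0.849), and its other probe sets had -0.08 ± 0.22 and -0.14 ± 0.20. Without GW array 1 these turned to 0.20 and 0.14. Smox had 0.02 ± 0.15. The average of both training comparisons, in which limma called 0 of 11 members and 0.0147% of all probe sets, gave Odc1 values of 0.08 ± 0.15, -0.01 ± 0.13 and 0.02 ± 0.14, and 0 of 11 members had an unadjusted p under 0.05, where 9.09% of all did.

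**Figure D3:**
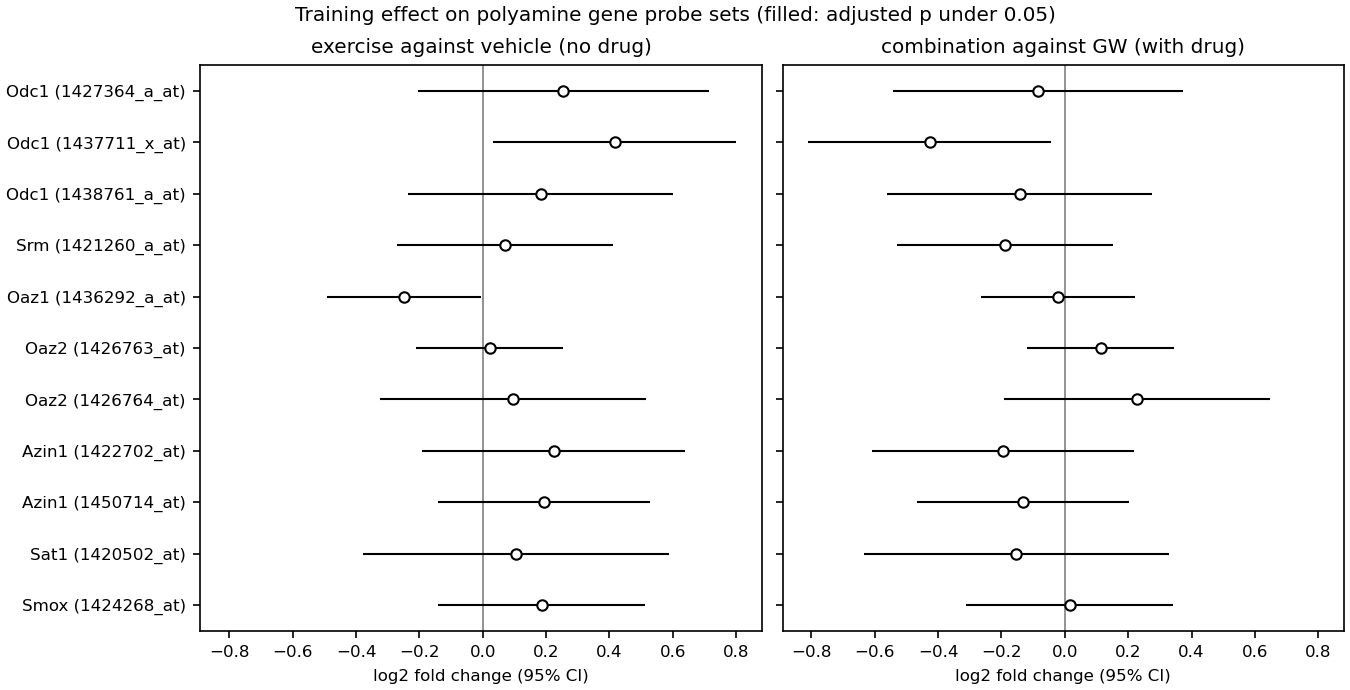
Log2 fold changes (points) with 95% confidence intervals (lines) of the 11 member probe sets for exercise against vehicle and for combination against GW. All points are open, as no member passed, and the Odc1 points lie right of 0 without the drug (0.18 to 0.42) and left of 0 with it (-0.43 to -0.08).

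The members differed in how steady they were within a group. The pooled SD of the log2 signal within groups was smallest for Oaz2 in 1426763_at (0.142), Srm (0.152) and Oaz1 (0.163). It was largest for Odc1 in 1427364_a_at (0.326), 1438761_a_at of Odc1 (0.309) and 1426764_at of Oaz2 (0.307). The last read 1667, 1502 and 1404 in combination, 1014, 1406 and 1535 in GW, 1362, 1244 and 1412 in exercise and 847, 1391 and 1663 in vehicle. The lowest arrays of Oaz2, GW array 1 and vehicle array 1, were those in which Odc1 was highest of its group.

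**Figure D4:**
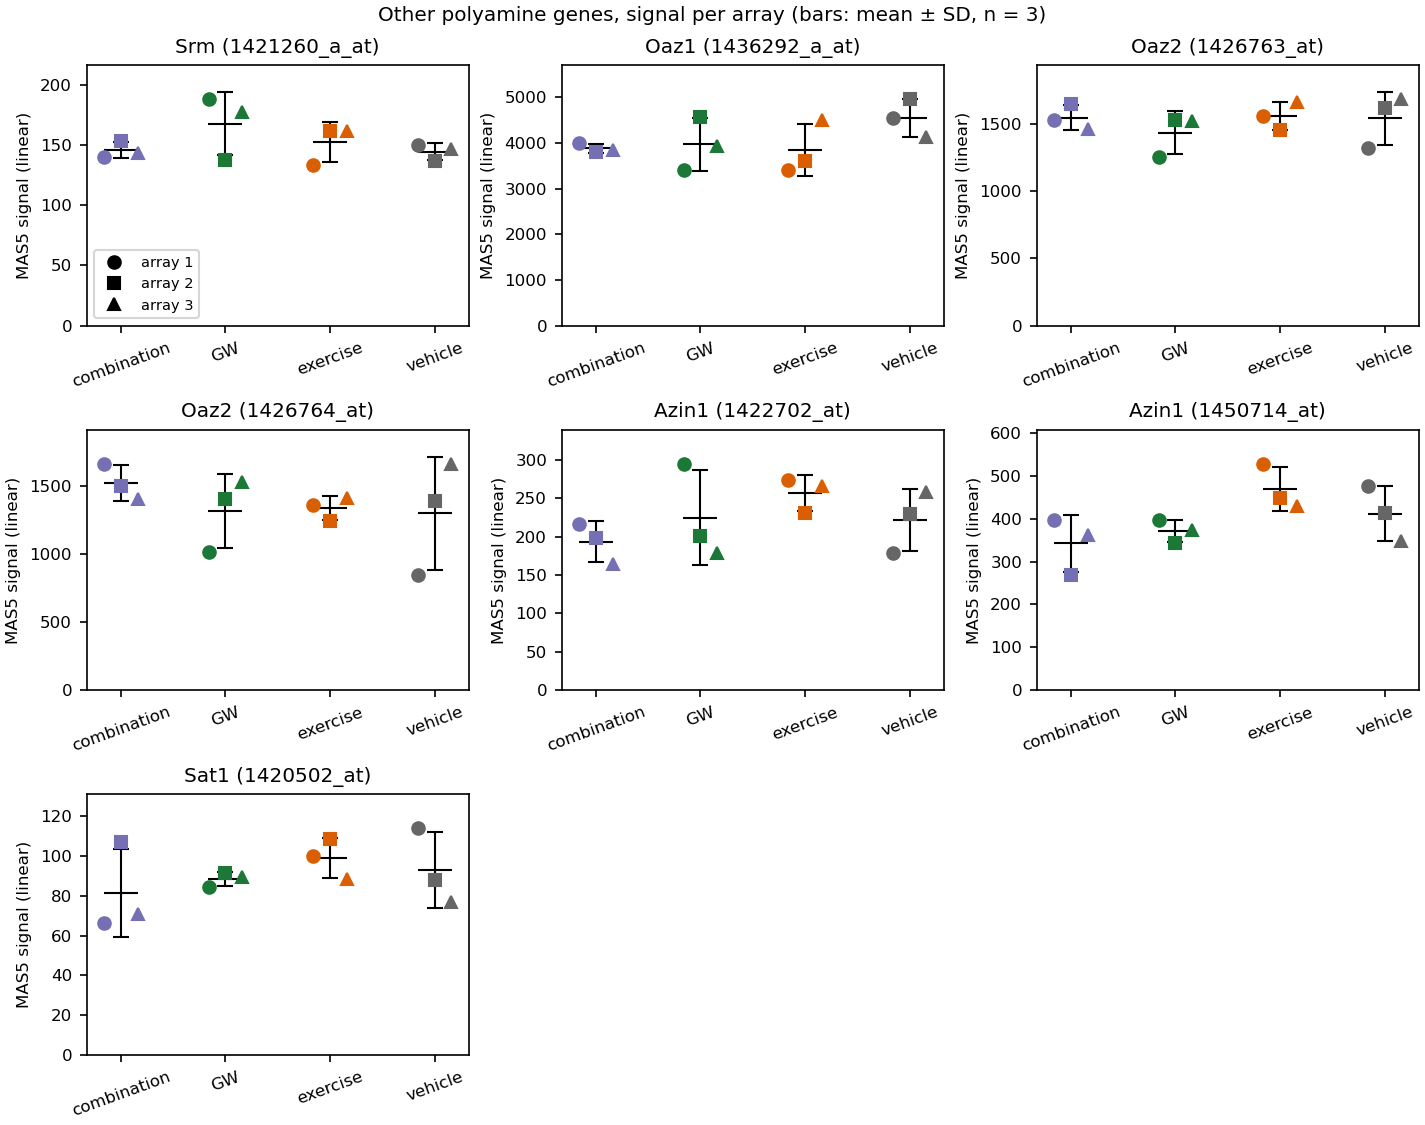
MAS5 signal (linear scale, from 0) of the 7 probe sets of Srm, Oaz1, Oaz2, Azin1 and Sat1 on each array, by group, with the mean ± SD of 3 arrays as black lines. Azin1 in the combination arrays sits below all exercise arrays in both of its panels, and Oaz2 (1426764_at) is lowest in vehicle array 1 and GW array 1.

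As a description of likeness, log2 signals over the 12 arrays were correlated with 1438761_a_at of Odc1. Among members the value was 0.705 for Azin1 in 1450714_at, the brighter of 2 probe sets that correlate at only 0.327, 0.634 for Smox, 0.43 for Sat1, 0.29 for Srm, -0.08 for Oaz1 and -0.37 for Oaz2 (1426763_at). Of 12509 other probe sets with 1 symbol, 1.63% lay above Azin1 and 3.25% above Smox. With the group means taken out, the values were 0.383 for Azin1, 0.127 for Smox, 0.156 for Sat1, 0.708 for Srm, -0.36 for Oaz1 and -0.84 for Oaz2. For Azin1, Smox and Sat1 the value was smaller within groups than over all arrays. For Srm, Oaz1 and Oaz2 it was larger in size within them. The arrays share group and pool, and array scaling, so these values carry no test. The 5 genes most like Odc1 were Tmem37 (r = 0.94), Hipk2 (0.924), Rgcc (0.92), Uqcr10 (0.899) and Nt5dc3 (0.898). The 5 most opposed were Rtn4 (-0.95), Luc7l2 (-0.94), 5031439G07Rik (-0.91), Me1 (-0.90) and Rab18 (-0.89).

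Probe sets annotated to a member together with a pseudogene cannot be assigned to either. Those listing Sms and Sms-ps had log2 fold changes in combination against exercise of -0.23 ± 0.12 (1421052_a_at), -0.03 ± 0.17 (1428699_at) and -0.07 ± 0.09 (1434190_at). The one listing Oaz1 and Oaz1-ps (1428868_a_at) had 0.12 ± 0.08. In GW against vehicle the same 4 had -0.08 ± 0.12, -0.19 ± 0.17, -0.13 ± 0.09 and 0.03 ± 0.08, and none passed in limma in any of the 8 comparisons.

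Neighbouring pathway genes were followed in 4 lists, and limma called no gene of them in any of the 8 comparisons. Other polyamine enzymes, transporters and the hypusine pathway, which modifies the translation factor eIF5A with spermidine, had 6 of 15 genes tested with 11 probe sets, and in combination against exercise 0 of 11 had an unadjusted p under 0.05 (median log2 0.01). Eif5a had a log2 fold change of -0.04 ± 0.08 there (1451470_s_at), and the polyamine transporter gene Atp13a3 had 0.13 ± 0.19 (1434513_at). In GW against vehicle Atp13a3 had -0.37 ± 0.19 in 1434513_at (limma adjusted p = 0.783) and 0.09 ± 0.28 in 1442145_at.

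The methionine cycle and the salvage of methylthioadenosine, a by-product of spermidine and spermine synthesis, had 10 of 14 genes tested with 19 probe sets. In combination against exercise 2 of 19 had an unadjusted p under 0.05 (median log2 0.02), a share near the 9.18% over all probe sets. Enoph1, a salvage enzyme gene, read 75.1, 78.7 and 61.3 in combination, 88.2, 92.1 and 101 in GW, 86, 109 and 95.2 in exercise and 120, 116 and 110 in vehicle in 1437327_x_at. Its combination arrays lay below all arrays of the other groups (log2 -0.69 ± 0.19 against vehicle, limma adjusted p = 0.203). Of all probe sets, 8.88% separated downward from vehicle and 8.21% from exercise. The other probe set of Enoph1, 1423705_at, had -0.50 ± 0.48 against vehicle. It read 59.6, 29.6 and 41.0 in combination, overlapping GW (36.6, 46.5 and 11.2) and exercise (58.4, 51.2 and 30.7). Ahcyl1 had 0.82 ± 0.26 in 1425576_at in combination against exercise (limma adjusted p = 0.359), and 0.15 ± 0.12 and 0.29 ± 0.23 in its other probe sets. Mtap, which opens the salvage, had 0.28 ± 0.13 in 1424425_a_at (limma adjusted p = 0.566).

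Genes of arginine, ornithine and proline metabolism, which supply or compete for ornithine, had 8 of 16 genes tested with 11 probe sets, and 1 of 11 had an unadjusted p under 0.05 in combination against exercise (median log2 -0.01), again near the 9.18% over all. That was Oat, ornithine aminotransferase, with 1733, 1947 and 1712 in combination, against 1482, 1518 and 1635 in exercise (log2 0.22 ± 0.09, limma adjusted p = 0.488). In exercise against vehicle 2 of 11 did, where 10.4% of all probe sets did: Prodh, the proline oxidase gene (log2 -0.54 ± 0.20, limma adjusted p = 0.375), and the mitochondrial ornithine carrier gene Slc25a15 (1420967_at, log2 -0.41 ± 0.18, limma adjusted p = 0.458). The arginase genes Arg1 and Arg2 lay below the filter on low signal. Of 7 genes for transcription factors known to act on Odc1, 3 were tested, with 4 probe sets, and Myc lay below the filter. Max had 0.52 ± 0.33, Mxi1 0.16 ± 0.22 in 1425732_a_at and Mnt 0.07 ± 0.39 in combination against exercise, with 0 of 4 at an unadjusted p under 0.05 (median log2 0.12).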

How the data were processed

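The deposited values are linear signal intensities per probe set, which the authors made with MAS5 per the submitters' processing notes, with its version not stated there. Signals were taken to log2 as deposited. Of 22626 probe sets that are no controls, the upper 60% by mean log2 signal (above 28.4) were tested. Symbols came from the array annotation and promoter sequences from RefSeq (GRCm38.p6).

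In R 4.3.3 with limma 3.58.1, 4 group means were fitted to 12 arrays (8 residual degrees of freedom) with an intensity trend. Each of 8 comparisons was tested two-sided and adjusted by Benjamini-Hochberg across 13575 probe sets, at a threshold of 0.05. On simulated data of that size, GW against vehicle recovered 24.4% of 1.5-fold and 58.4% of 2-fold changes, and the drug main effect 45% and 75.2%. The simulated noise was independent between probe sets. Over 5 simulated runs, 500 changes of 1.5-fold, 250 of 2-fold and 250 of 3-fold were planted, and GW against vehicle gave 484 calls. The real arrays, a single data set, gave 13, and how many of their probe sets truly change is not known. Recovery depends on the number of changes planted, so these rates may not hold for the real arrays, where recovery may be lower. The number of arrays limits the precision.

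The members and lists were chosen with earlier results of these data known. All members were named, and from each of 4 lists up to 4 genes per comparison by smallest p, called ones first. Fos, Egr1 and Hspa1b were named as early genes that differ between arrays of a group, and Adipoq after its values were seen. Alternatives changed the normalization, pseudocount, filter, variance model, array weights, replicate block and arrays in the fit.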

Additional observations from a re-analysis of the deposited data

How the results depend on the processing

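Counts of member probe sets called stayed at 0 in GW against vehicle, exercise against vehicle, combination against GW, the training main effect and the interaction under every alternative run. In combination against vehicle the count was 1 with array weights (Odc1 in 1437711_x_at, limma adjusted p = 0.042) and 0 otherwise. In combination against exercise it was 0 without an intensity trend and 2 with only the groups compared, and leaving out 1 array gave 0 to 2. In the drug main effect it was 0 without an intensity trend and 2 with array weights, and leaving out 1 array gave 0 to 3. With the replicate number as a block the counts were 1 in combination against exercise and 1 in the drug main effect, and the block changed no call. The array titles do not say what the number marks. Of 18 same-numbered pairs of arrays from different groups, 1 had deviations correlated over 0.1, and r ran from -0.0484 to 0.1004. Between GW and vehicle, r was 0.076, 0.1004 and 0.0628 for arrays 1, 2 and 3, and negative in every pair of unlike number (-0.0781 to -0.00899). Deviations from a group mean cancel within the group, so positive same-numbered pairs make the unlike ones negative on average. The sign of the unlike pairs therefore adds nothing. Whether same-numbered arrays shared handling was not tested. Quantile normalization, cyclic loess, a pseudocount of 10.5, no filter, a filter at the upper 40% and a robust prior changed none of these counts. Of single log2 fold changes 0 reversed while called, 7 lost a call and 9 gained one, all for Odc1 or Smox. Why the variance model changes the calls was not tested. The spread between 3 pools limits what can be called.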
